A study of Mus musculus with 10 samples.

Results

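Monocytes and neutrophils sorted from the lungs of NOD/scid mice that carried the low metastatic tumour HCl-002 (TN2) were compared across all genes. The 6 libraries labelled TN2 were taken by their titles from the 10 RNA-seq libraries of the series: 3 of monocytes and 3 of neutrophils, each numbered by tag (tag_367, tag_706 and tag_1341). The other 4 libraries came from lungs of mice with the highly metastatic tumour HCl-001 (TN1) and enter only where the cell types are compared between the tumours. The series' title places the work in breast cancer and in the cooperation of monocytes with neutrophils against metastasis. Every mouse was of the NOD/scid strain, which lacks mature T and B cells, and every lung was taken when the tumour had reached its end point. There is no library from a tumour-free mouse in the comparison. Monocytes were sorted by flow cytometry as CCR2+, so Ccr2 was part of the gate and its level is a check of the sort, not a finding. The gate used for the neutrophils is not given in the sources used here, nor is the age or sex of the mice. RNA was purified with the RNeasy Micro Kit, amplified with Smart-seq2, which copies polyadenylated RNA along its whole length, made into libraries with the Illumina XT kit and sequenced on an Illumina HiSeq. Each tag appears once in each cell type, but the labels do not say that a tag is a mouse or that the libraries come from separate mice, so p-values measure the spread between these samples only.

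Neutrophils are short-lived granulocytes that leave the bone marrow with their granule proteins already made, seek out inflamed tissue through the CXCR2 and formyl peptide receptors, and kill by granule release and by an oxidative burst. CCR2+ monocytes follow the chemokine CCL2 into tissue, where they can turn into macrophages or antigen-presenting cells. They keep a larger endoplasmic reticulum, more ribosomes and more active mitochondria than neutrophils, and can be induced to carry MHC class II. Both cells descend from a common bone marrow precursor and share the transcription factor PU.1 and the C/EBP family, with IRF8 favouring the monocyte branch.

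The libraries held 9149356 to 11311370 estimated counts. Levels are CPM, counts scaled to the library's size after edgeR's TMM adjustment, and 3 values in a row always follow the tags tag_367, tag_706 and tag_1341. Between 9730 and 12041 genes reached 5 counts in a neutrophil library and between 11608 and 15231 in a monocyte library. The 10 most abundant genes took 27.4% to 29.0% of all TPM, a level scaled to transcript length and library, in neutrophils and 11.8% to 14.2% in monocytes. The summed level of 15 neutrophil markers was 94083, 108682 and 123570.4 CPM in the neutrophil libraries and 2669.6, 3358 and 4321 CPM in the monocyte libraries. The 15 monocyte markers summed to 30051, 13215 and 42649.7 CPM in the monocyte libraries and to 5753, 5527 and 16174 CPM in the neutrophil libraries. The neutrophil marker sums separated the cell types, whereas the monocyte marker sums overlapped, since monocyte library tag_706 lay below neutrophil library tag_1341. Singly, 10 of the 15 monocyte markers lay higher in monocytes without overlap, against 29.7% of all genes tested. The lysozyme gene Lyz2, the most abundant gene of monocytes, is in this list and followed the order of its sums, at 26124, 16239 and 44074 TPM. Monocyte library tag_706 and neutrophil library tag_1341 stood apart. Monocyte library tag_706 had the lowest monocyte sum and held endothelial, stromal and epithelial markers at 1734, 2845 and 417 CPM, where the other monocyte libraries had at most 68.3, 18.7 and 16.0 CPM. In the neutrophil libraries the endothelial markers summed to 495, 375 and 17.5 CPM. Their stromal markers summed to 84.2, 230.4 and 2.69 CPM and their epithelial markers to 20.3, 195.7 and 2.09 CPM. Monocyte library tag_706 also held Marco and Krt79, alveolar macrophage genes, at 248 and 592 counts, against 0 counts of each in both other monocyte libraries. The sum of all 10 alveolar macrophage markers was instead highest in tag_1341, at 1815, 4029 and 9656 CPM in the monocyte libraries. In the neutrophil libraries this list summed to 999, 335 and 2002 CPM. Its member Chil3 followed the order of the monocyte sums, at 1939, 5256 and 11047 TPM. Other members did not: Ear1 measured 17.7, 80.7 and 37.3 CPM in monocytes, and Fabp1 had 149 counts in tag_706 and 0 in both other monocyte libraries. The sum therefore does not rank these libraries for the list as a whole. Neutrophil library tag_1341 had a monocyte marker sum of 16174 CPM where its partners had 5753 and 5527 CPM, and F13a1, Ly6c2, Ccr2 and Fn1 were high in it. Not all markers of the list followed: among neutrophils Irf8 and Klf4 were lowest in tag_1341, and Cx3cr1 and Csf1r lay between the partner libraries. Natural killer cell markers ran from 5.91 to 367.1 CPM in the monocyte libraries, again highest in tag_706, and Cd3e, Epx and Mcpt8, which define T cells, eosinophils and basophils, had 0 counts in every TN2 library. Not all of their list partners did: Cd3d, a chain of the T cell receptor complex, measured 41.7, 41.8 and 26.4 CPM in neutrophils and 2.88, 3.72 and 0.577 CPM in monocytes (difference -3.92 ± 0.72 SE on the log2 scale, adjusted p = 0.00935), and Ccr3, the eotaxin receptor, measured 4.49, 3.33 and 7.91 CPM against 0.0778, 0 and 0 CPM (adjusted p = 0.00931, both by the edgeR quasi-likelihood test described below). Cd3g and Cd4 had up to 56 and 40 counts in a library. These 4 genes were named after their values were seen. In these bulk libraries, fewer cells of a type and less RNA per cell cannot be told apart.

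**Figure D1:**
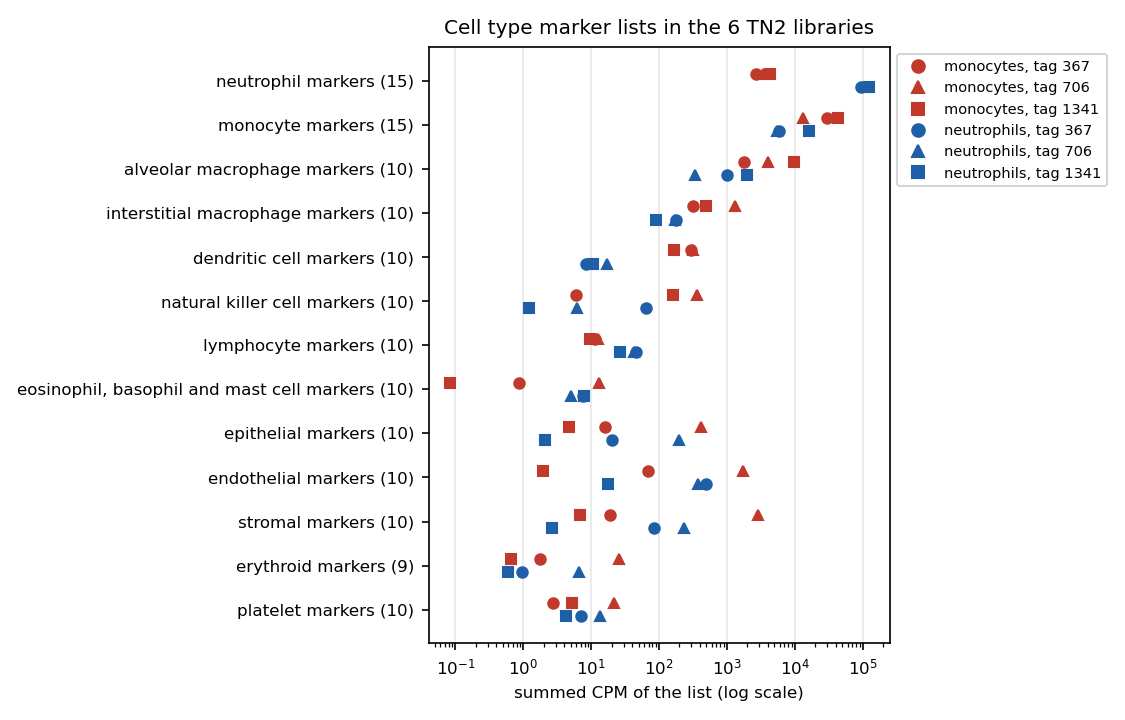
Summed level of each marker list in the 6 TN2 libraries, in CPM on a log scale, with 1 point per library (the shape gives the tag). Neutrophil markers separate the cell types, and neutrophil library tag_1341 lies above monocyte library tag_706 in summed monocyte markers, 16174 against 13215 CPM. That list includes Lyz2, the most abundant gene of monocytes. Monocyte library tag_706 is highest in endothelial and stromal markers, at 1734 and 2845 CPM. Neutrophil libraries tag_367 and tag_706 come next, at 495 and 375 CPM of endothelial and 84.2 and 230.4 CPM of stromal markers.

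The lineages differed at 2796 of 11519 genes tested, 24.3% of them, at an adjusted p under 0.05 (edgeR quasi-likelihood test with Benjamini-Hochberg adjustment over all genes, which gives every adjusted p below). Of these, 1365 genes (11.8%) were higher in monocytes and 1431 (12.4%) were lower. The difference exceeded 4-fold at 1700 of the called genes, and exceeded 32-fold at 157 genes higher and 90 lower in monocytes. Every value of 1 cell type lay above every value of the other at 50.7% of tested genes, 29.7% higher and 21.0% lower in monocytes. The median log2 difference over all genes, monocytes minus neutrophils, was 0.42, and this offset depended on the scaling: it was 0.35 with DESeq2's size factors, 1.44 with total counts alone and 0.94 on log2(TPM + 1). The split of calls moved to 3595 higher and 672 lower with total counts alone, and to 4695 higher and 875 lower in a limma trend fit on log2(TPM + 1), which changes the test as well as the scaling. The TMM factors were 0.829, 0.651 and 0.639 in neutrophils and 1.31, 1.72 and 1.29 in monocytes, beside the larger share of TPM that the top 10 genes took in neutrophils. Each list median below is therefore set against this median of all genes. Of 179 named genes that were called, 136 kept the call when any 1 library was left out and 14 lost it with total counts alone, and a loss is given where a gene is described.

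**Figure D2:**
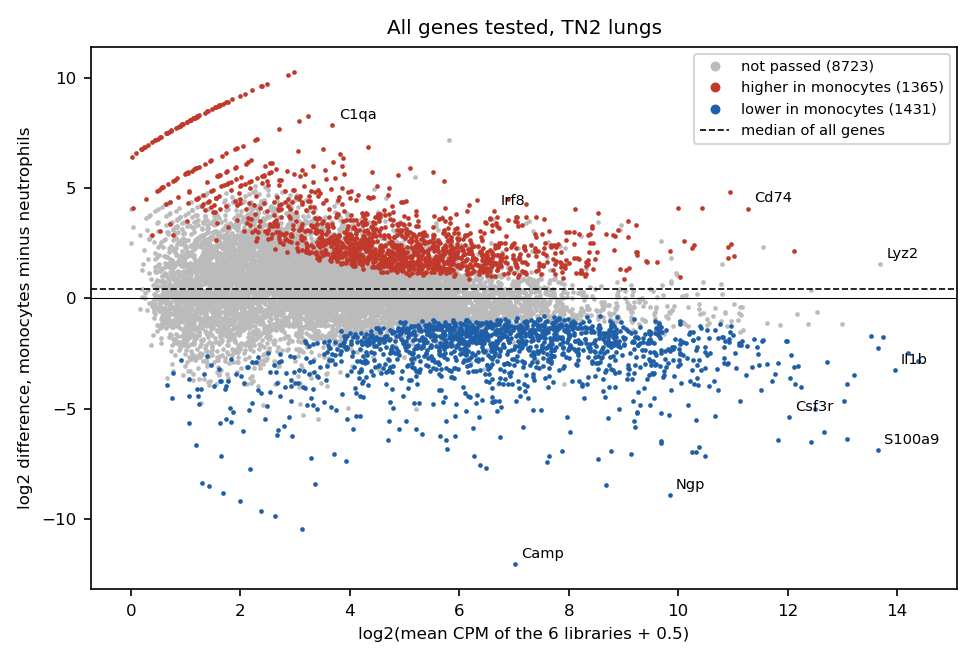
Log2 difference of each tested gene, monocytes minus neutrophils, against its mean level in log2 CPM, with the genes called at an adjusted p under 0.05 in colour. Calls lie on both sides of the median of all genes at 0.42, 1365 above and 1431 below 0.

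Neutrophil identity was carried by receptors, alarmins and granule proteins that were far lower in the monocyte libraries. Of 15 neutrophil markers, 14 were lower in monocytes, and the median log2 difference was -6.08 where that of all genes was 0.42. Csf3r, through which G-CSF acts on granulocytes, measured 6964, 8402 and 9067 CPM in neutrophils and 143, 225 and 213 CPM in monocytes, 42.1-fold lower (difference -5.39 ± 0.42 SE on the log2 scale, adjusted p = 0.00198). Cxcr2, which guides neutrophils along CXC chemokines, measured 1972, 2281 and 3037 CPM in neutrophils and 4.75, 44.6 and 9.32 CPM in monocytes (difference -6.95 ± 0.97 SE on the log2 scale, adjusted p = 0.00406). Monocyte library tag_706 held the most Cxcr2 of the monocyte libraries, still far below every neutrophil library. The alarmin S100a8 measured 17771, 13513 and 20234 CPM against 31.4, 347 and 235 CPM (difference -6.39 ± 0.96 SE on the log2 scale, adjusted p = 0.00497). Its partner S100a9 measured 23639, 23536 and 28955 CPM against 12.5, 570.0 and 65.5 CPM (difference -6.88 ± 1.45 SE on the log2 scale, adjusted p = 0.0151). The spread of S100a9 within monocytes was wide, and its call was lost without neutrophil tag_367, neutrophil tag_706 or monocyte tag_1341 (adjusted p from 0.0503 to 0.0528). Il1r2, the decoy receptor for interleukin 1, measured 7874, 13083 and 12714 CPM in neutrophils and 269.9, 339 and 427 CPM in monocytes (difference -5.02 ± 0.46 SE on the log2 scale, adjusted p = 0.00198). Hdc, which makes histamine, measured 9953, 14682 and 13870.0 CPM against 76.7, 379 and 115 CPM (difference -6.08 ± 0.77 SE on the log2 scale, adjusted p = 0.00324). None of these genes overlapped between the cell types, which held for 2792 of all 2796 called genes. Cd177, a surface antigen carried by a fraction of neutrophils, was the marker that did not pass (adjusted p = 0.329), at 879.6, 731 and 1149 CPM in neutrophils and 751, 288 and 777 CPM in monocytes.

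The monocyte side was less uniform. Of 15 monocyte markers, 7 were higher in monocytes and 0 lower, with a median log2 difference of 3.09, and 10 did not overlap between the cell types. The number called rose to 11 without neutrophil library tag_1341 (median 4.15), to 10 without monocyte library tag_706 (median 3.35) and to 12 without both (median 4.52). It fell to 2 without monocyte library tag_367 and to 3 without monocyte library tag_1341, neutrophil library tag_367 or neutrophil library tag_706. Irf8, the factor that favours monocytes over granulocytes, was the clearest member, at 16.2, 10.4 and 9.70 CPM in neutrophils and 148, 177 and 234 CPM in monocytes, 15.4-fold higher (difference 3.94 ± 0.36 SE on the log2 scale, adjusted p = 0.00198). Ly86, which escorts the receptor RP105 to the surface, measured 13.3, 9.86 and 41.3 CPM against 399, 146 and 278 CPM (difference 3.67 ± 0.66 SE on the log2 scale, adjusted p = 0.00894). Ccr2, the gated receptor, measured 14.6, 3.61 and 76.9 CPM in neutrophils and 697, 204 and 661 CPM in monocytes, lowest among monocytes in tag_706 and highest among neutrophils in tag_1341. Its call was lost without neutrophil tag_367, neutrophil tag_706, monocyte tag_367 or monocyte tag_1341 (adjusted p from 0.0661 to 0.128). The fractalkine receptor gene Cx3cr1 measured 11.7, 3.19 and 3.73 CPM against 79.7, 35.3 and 44.0 CPM (difference 3.09 ± 0.64 SE on the log2 scale, adjusted p = 0.0138). The call of Cx3cr1 was lost without monocyte tag_367 (adjusted p = 0.0652). Fn1, which encodes fibronectin, measured 23.3, 36.8 and 205 CPM against 1160.5, 541 and 1302 CPM (difference 3.50 ± 0.87 SE on the log2 scale, adjusted p = 0.0258). The call of Fn1 was lost without neutrophil tag_367, neutrophil tag_706, monocyte tag_367 or monocyte tag_1341 (adjusted p from 0.0668 to 0.102), and neutrophil library tag_1341 was its highest neutrophil value.

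Several genes often read as monocyte genes did not pass. F13a1, which encodes the clotting factor XIII A chain, measured 6.40, 6.53 and 173 CPM in neutrophils and 749, 226 and 1057 CPM in monocytes, without overlap but with an adjusted p of 0.102. Ly6c2, which encodes a form of the Ly6C antigen of inflammatory monocytes, measured 21.9, 21.2 and 181 CPM against 469, 159 and 526 CPM, and the groups overlapped (adjusted p = 0.101). In both genes neutrophil library tag_1341 was the high neutrophil value and monocyte library tag_706 the low monocyte value. Csf1r, the receptor for macrophage colony-stimulating factor, was abundant in both cell types at 680.2, 750.2 and 727 CPM in neutrophils and 1525, 586 and 1339.6 CPM in monocytes (adjusted p = 0.236). Klf4, a monocyte transcription factor, measured 39.9, 18.5 and 9.70 CPM against 48.2, 75.4 and 28.9 CPM (adjusted p = 0.189). The groups overlapped for both. Thbs1, which encodes the matrix glycoprotein thrombospondin 1, was high and variable in both, at 2171, 4001 and 8059.5 CPM in neutrophils and 5083, 2844 and 10859 CPM in monocytes (adjusted p = 0.681). The interferon gamma receptor gene Ifngr1 measured 549, 656 and 719 CPM against 772, 465 and 716 CPM, and Tnfsf10, which encodes the death ligand TRAIL, 2.18, 10.8 and 8.51 CPM against 3.03, 8.55 and 1.15 CPM, both overlapping.

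**Figure D3:**
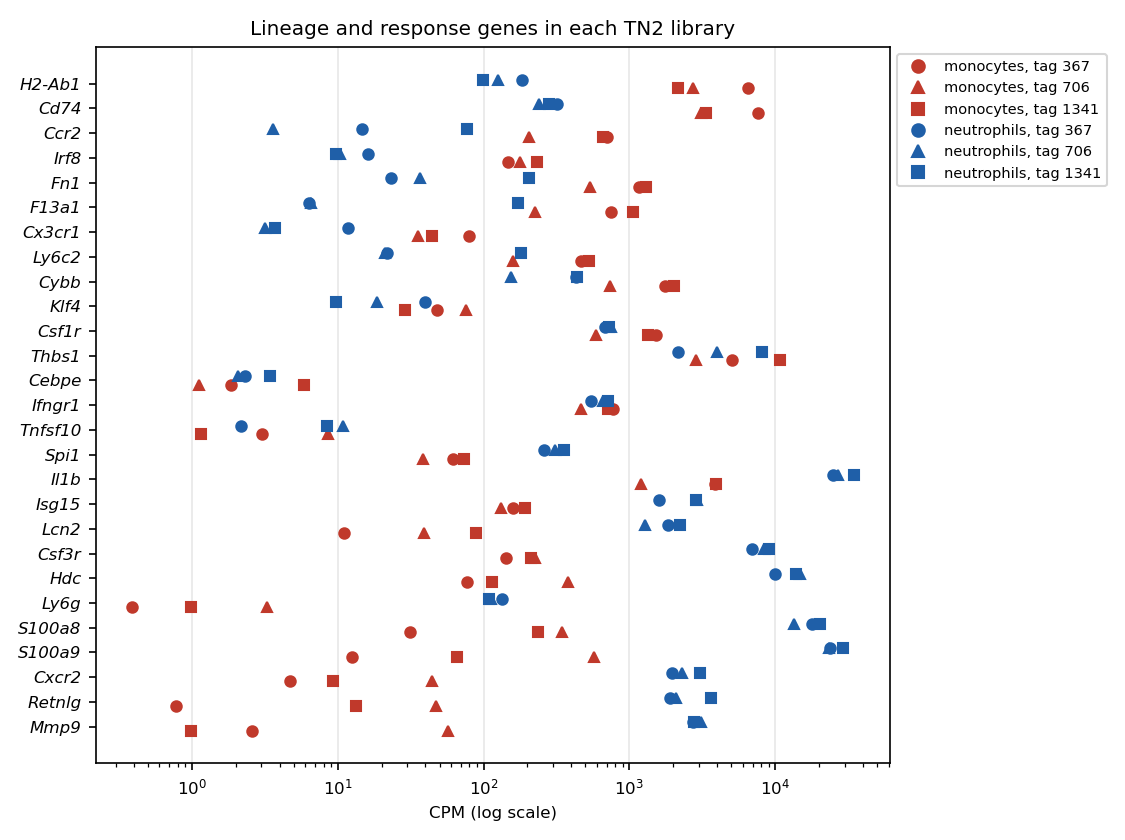
CPM on a log scale of 27 listed lineage and study genes in each TN2 library, red for monocytes, blue for neutrophils and the shape for the tag. Genes at the bottom, such as Csf3r and Cxcr2, sit far apart in all libraries, whereas the groups overlap for Csf1r, Ly6c2, Klf4, Ifngr1, Tnfsf10, Thbs1 and Cebpe.

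Ly6g and Ly6c2 encode the related antigens by which neutrophils and inflammatory monocytes are told apart in mice. Ly6g measured 134, 112 and 109 CPM in neutrophils and 0.389, 3.28 and 0.990 CPM in monocytes (difference -6.22 ± 0.78 SE on the log2 scale, adjusted p = 0.0032), whereas Ly6c2 was numerically higher in monocytes and did not pass. Their promoters are shown because they are near copies of each other, while Ly6g alone was called. The last 120 bases before each start site, from RefSeq on GRCm38.p6, lie at chr15:75155209-75155328 on the plus strand for Ly6g and at chr15:75111972-75112091 on the minus strand for Ly6c2, and capitals mark the letters GAGGAAGT, a core of PU.1 sites, searched on both strands.
Ly6g: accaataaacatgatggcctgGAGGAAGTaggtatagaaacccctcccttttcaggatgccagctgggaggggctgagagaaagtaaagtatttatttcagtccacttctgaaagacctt
Ly6c2: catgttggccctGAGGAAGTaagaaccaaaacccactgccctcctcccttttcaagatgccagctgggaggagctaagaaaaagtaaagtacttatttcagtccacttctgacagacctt
In an alignment of these stretches 97 of 111 aligned bases were identical, and both hold the same PU.1 letters, at different distances from the starts shown. RefSeq gives another start for each gene. Within 250 bases before it, Ly6g holds 1 match and Ly6c2 holds 2, so counts and distances depend on the start chosen. The letters occur in 2.87% of the 11303 promoters (250 bases before the start) that RefSeq gives for the tested genes. Because family members share sequence, reads of Ly6c2 and its neighbour Ly6c1 could have been split between them by the authors' quantification. Of 14 tested Ly6 and S100 genes, 3 were higher (0 without neutrophil tag_367 or neutrophil tag_706, 1 without monocyte tag_367) and 5 lower (3 without neutrophil tag_706 or monocyte tag_1341) in monocytes; with total counts alone, 6 were higher and 4 lower. S100a11 was lower, at 881, 1306 and 1504 CPM in neutrophils and 193, 134 and 218 CPM in monocytes (difference -2.76 ± 0.35 SE on the log2 scale, adjusted p = 0.0032), while S100a10, which binds annexin A2, was higher at 493, 263 and 617 CPM in monocytes against 17.7, 14.3 and 137 CPM in neutrophils. The call of S100a10 was lost without neutrophil tag_367, neutrophil tag_706, monocyte tag_367 or monocyte tag_1341 (adjusted p from 0.113 to 0.144).

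Among 24 lineage transcription factors, 4 were higher (2 without neutrophil tag_367, monocyte tag_367 or monocyte tag_1341) and 6 lower (3 without monocyte tag_367) in monocytes, and the median of 0.43 lay at that of all genes. The balance turned with the scaling: with total counts alone, 13 were higher and 2 lower. Higher with Irf8 was Irf4, a factor of antigen-presenting cells, with 1 count over the neutrophil libraries and 9.96, 5.08 and 11.5 CPM in monocytes (adjusted p = 0.008). Spi1, which encodes PU.1, was lower in monocytes at 61.4, 38.6 and 73.2 CPM against 262, 307 and 358 CPM in neutrophils (difference -2.42 ± 0.33 SE on the log2 scale, adjusted p = 0.00373). Ets2, a signal-responsive ETS factor, measured 2220.4, 2805 and 2168 CPM in neutrophils and 197, 209 and 182 CPM in monocytes, 12.2-fold lower (difference -3.61 ± 0.30 SE on the log2 scale, adjusted p = 0.00198). Stat3, which transmits G-CSF and interleukin 6 signals, measured 1134, 1239.8 and 1213 CPM against 376, 399 and 397 CPM (difference -1.61 ± 0.25 SE on the log2 scale, adjusted p = 0.0052). The call of Stat3 was lost with total counts alone (adjusted p = 0.075). Cebpe, the factor of late granule synthesis, was near its lower limit in both cell types at 2.32, 2.08 and 3.43 CPM in neutrophils and 1.87, 1.12 and 5.86 CPM in monocytes. Outside the list, Id3, an inhibitor of basic helix-loop-helix factors, was among the 12 smallest p-values of the genes higher in monocytes, at 58.0, 51.4 and 55.8 CPM against 562, 423 and 332 CPM (difference 2.99 ± 0.30 SE on the log2 scale, adjusted p = 0.0022).

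Neutrophils make their granule proteins in stages as they mature. Among genes of specific and gelatinase granules, 16 of 22 were lower (9 without monocyte tag_367) and 1, the oxidase subunit gene Cybb, higher in monocytes (median -3.07). Ngp, a neutrophilic granule protein, ranged widely among neutrophils at 4822, 149.7 and 541 CPM and stood at 0.856, 4.21 and 6.43 CPM in monocytes (difference -8.90 ± 1.64 SE on the log2 scale, adjusted p = 0.00954). Camp, which encodes cathelicidin, measured 719, 7.5 and 47.6 CPM in neutrophils and had 2 counts over the 3 monocyte libraries, and its call was lost without monocyte tag_367 (adjusted p = 0.0565). Both were by far highest in neutrophil library tag_367. Lrg1, a leucine-rich glycoprotein stored in these granules, was more even at 2694, 2576 and 4314 CPM against 45.4, 112 and 79.4 CPM (difference -5.34 ± 0.50 SE on the log2 scale, adjusted p = 0.00198). Pglyrp1, which binds bacterial peptidoglycan, measured 827, 1097 and 1422 CPM against 27.3, 56.8 and 47.3 CPM (difference -4.67 ± 0.42 SE on the log2 scale, adjusted p = 0.00198). The gelatinase Mmp9 measured 2748, 3097 and 2759 CPM against 2.57, 57.0 and 0.990 CPM (difference -7.14 ± 1.58 SE on the log2 scale, adjusted p = 0.0175). The call of Mmp9 was lost without neutrophil tag_367, neutrophil tag_706 or monocyte tag_367 (adjusted p from 0.0588 to 0.0624). Of 10 primary granule genes, which are made in the marrow, only 5 passed the filter on low counts and 0 of these were called, and Mpo and Elane were not among them. Among stefins, small inhibitors of cathepsins, and other protease inhibitors, 6 of 14 tested genes were lower in monocytes and 0 higher; with total counts alone, 2 were higher and 5 lower. Stfa2 measured 105, 120.41 and 232 CPM in neutrophils and 0.156, 2.73 and 0.165 CPM in monocytes (difference -7.16 ± 1.17 SE on the log2 scale, adjusted p = 0.00658). BC100530, another stefin of the same cluster, measured 295, 289.6 and 604 CPM against 0.0778, 6.57 and 1.57 CPM (difference -7.15 ± 1.25 SE on the log2 scale, adjusted p = 0.00804), and reads may be split between such near copies.

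The subunits of the phagocyte NADPH oxidase did not move as a unit. Of 10 genes, 4 were lower in monocytes and 1 higher, with a median of -0.29. This balance turned with the scaling: with total counts alone, 4 were higher and 3 lower, with a median of 0.79. The cytosolic subunit gene Ncf1 measured 639, 955 and 751 CPM in neutrophils and 188, 130.2 and 209 CPM in monocytes (difference -2.15 ± 0.31 SE on the log2 scale, adjusted p = 0.00444). Rac2, the small GTPase that completes the active complex, measured 2127, 2862 and 2326 CPM against 526, 299.6 and 520.0 CPM (difference -2.44 ± 0.35 SE on the log2 scale, adjusted p = 0.00431). Cybb, the catalytic membrane subunit, was the member that was higher in monocytes, at 1747, 736 and 2013 CPM against 431, 154 and 436 CPM in neutrophils (difference 2.14 ± 0.54 SE on the log2 scale, adjusted p = 0.0269). The call of Cybb was lost without neutrophil tag_367, neutrophil tag_706, monocyte tag_367 or monocyte tag_1341 (adjusted p from 0.0645 to 0.0925). Its membrane partner Cyba did not pass (adjusted p = 0.932). The groups did not overlap for any of the 5 called genes, which held for 2792 of all 2796 called genes and so adds little to the calls.

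Genes of antigen presentation by MHC class II had the highest median of the function lists. Of 15 genes, 10 were higher and 0 lower, 13 had no overlap, and the median log2 difference was 4.08, against 0.42 over all genes. Cd74, the invariant chain that fills the class II groove until a peptide is loaded, measured 321, 241 and 280.2 CPM in neutrophils and 7616, 3096 and 3368 CPM in monocytes, 16.7-fold higher (difference 4.06 ± 0.48 SE on the log2 scale, adjusted p = 0.00285). H2-Ab1, a beta chain, measured 183, 126 and 99.9 CPM against 6553, 2746 and 2156 CPM (difference 4.81 ± 0.57 SE on the log2 scale, adjusted p = 0.00286). Both were highest in monocyte library tag_367. H2-DMb2, part of the exchanger that loads peptide, measured 5.18, 5.97 and 10.6 CPM against 238, 83.4 and 86.9 CPM (difference 4.23 ± 0.57 SE on the log2 scale, adjusted p = 0.00376). Rfx5, Rfxank and Rfxap, which form the factor that binds every class II promoter, did not pass, with adjusted p of 0.171, 0.851 and 0.918, whereas Ciita, the inducible co-activator, was called higher (adjusted p = 0.0102). Markers of dendritic cells moved with this group: 5 of 9 tested were higher in monocytes (1 without neutrophil tag_367 or monocyte tag_367, 2 without neutrophil tag_1341, 3 without neutrophil tag_706 or monocyte tag_706), and the 10 markers summed to 296, 312 and 166 CPM in monocytes and 8.31, 17.1 and 10.6 CPM in neutrophils. Ccr7, which takes dendritic cells to lymph nodes, measured 0, 0.833 and 4.18 CPM in neutrophils and 74.3, 114 and 78.0 CPM in monocytes, and its call was lost without neutrophil tag_706 (adjusted p = 0.0688). The dendritic cell receptor Flt3 measured 0.817, 0.694 and 3.73 CPM against 44.4, 18.8 and 17.5 CPM. The call of Flt3 was lost without neutrophil tag_367, neutrophil tag_706 or monocyte tag_367 (adjusted p from 0.0605 to 0.0849). The part of dendritic cells in the class II values was not tested.

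The promoters of H2-Aa and H2-Eb1 are printed because these genes encode an alpha and a beta chain of class II and hold the Y box, CTGATTGG, a motif known from class II promoters. H2-Aa measured 145, 192 and 120.45 CPM in neutrophils and 4839, 1756 and 1302 CPM in monocytes, and H2-Eb1 measured 123, 150.1 and 69.4 CPM against 3590.2, 1317 and 890.3 CPM; both were chosen after their values were seen. Of the class II list, 11 of 15 genes matched RefSeq promoters, and 3 of these, H2-Oa, H2-Aa and H2-Eb1, held the letters on either strand within 250 bases before the start, all 3 higher in monocytes. The same letters stand in 5.09% of the promoters of tested genes. The stretches lie at chr17:34287824-34287943 on the minus strand and chr17:34305747-34305866 on the plus strand of GRCm38.p6, and capitals mark the Y box.
H2-Aa: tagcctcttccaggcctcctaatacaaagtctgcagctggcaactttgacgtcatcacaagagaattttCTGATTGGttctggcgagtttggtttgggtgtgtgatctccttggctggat
H2-Eb1: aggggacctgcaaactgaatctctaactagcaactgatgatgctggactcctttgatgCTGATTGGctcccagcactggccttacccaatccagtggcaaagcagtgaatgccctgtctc
A match is a description of letters, and no binding was measured.

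MHC class I genes were called in both directions, in numbers that depended on the scaling. Of 22 genes, 5 were higher (2 without neutrophil tag_367, neutrophil tag_706, monocyte tag_367 or monocyte tag_1341) in monocytes and 3 lower (0 without monocyte tag_367, 1 without neutrophil tag_706, neutrophil tag_1341 or monocyte tag_1341), the latter near the 12.4% of all genes, and the median was -0.20; with total counts alone, 11 were higher and 1 lower. Lower were the heavy chains H2-D1, at 13907, 20103 and 20320.0 CPM in neutrophils and 5884, 4472 and 6153 CPM in monocytes (difference -1.72 ± 0.41 SE on the log2 scale, adjusted p = 0.0226), and H2-Q4, at 126, 107 and 147 CPM against 45.4, 52.7 and 49.1 CPM (difference -1.37 ± 0.26 SE on the log2 scale, adjusted p = 0.0109). The third was H2-Q6, a near copy of its neighbours, at 449, 459 and 544 CPM against 279, 279.7 and 281 CPM (difference -0.79 ± 0.23 SE on the log2 scale, adjusted p = 0.0458), whose difference turned to 0.25 with total counts alone and whose call was lost without any 1 of the 6 libraries. The call of H2-D1 was lost without neutrophil tag_706, neutrophil tag_1341, monocyte tag_367 or monocyte tag_1341 (adjusted p from 0.0739 to 0.0945), and that of H2-Q4 was lost without monocyte tag_367 (adjusted p = 0.0556) and with total counts alone (adjusted p = 0.381). Among the higher genes were Canx, the calnexin chaperone, at 84.3, 79.7 and 84.2 CPM in neutrophils and 384, 236 and 416 CPM in monocytes (difference 2.06 ± 0.30 SE on the log2 scale, adjusted p = 0.00449), and Psmb10, an immunoproteasome subunit, at 24.5, 16.4 and 28.2 CPM against 207, 77.8 and 154 CPM (difference 2.67 ± 0.44 SE on the log2 scale, adjusted p = 0.00672). Of 27 lysosomal genes, 13 were higher (2 without monocyte tag_367 or monocyte tag_1341, 3 without neutrophil tag_706, 4 without neutrophil tag_367) and 3 lower (0 without neutrophil tag_706 or monocyte tag_367, 1 without neutrophil tag_1341 or monocyte tag_1341), the latter near the 12.4% of all genes. With total counts alone, 22 were higher and 0 lower. Lamp1, a membrane glycoprotein of lysosomes, measured 41.9, 39.6 and 54.6 CPM in neutrophils and 299.6, 144 and 209.7 CPM in monocytes (difference 2.26 ± 0.35 SE on the log2 scale, adjusted p = 0.00536), while its relative Lamp2 went the other way at 1335, 1857 and 2116 CPM against 577, 406 and 762 CPM (difference -1.60 ± 0.35 SE on the log2 scale, adjusted p = 0.0171). The call of Lamp2 was lost without neutrophil tag_706, neutrophil tag_1341 or monocyte tag_367 (adjusted p from 0.0525 to 0.0779) and with total counts alone (adjusted p = 0.0702). Lgmn, the asparaginyl protease legumain, measured 104, 156 and 227 CPM against 862, 506 and 879 CPM (difference 2.21 ± 0.39 SE on the log2 scale, adjusted p = 0.00832).

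Type I interferon-stimulated genes were lower in monocytes than in neutrophils in most cases. Of 31 genes, 19 were lower and 2 higher, and the median was -1.97. Isg15, a ubiquitin-like protein, measured 1596, 2917 and 2859 CPM in neutrophils and 158, 133 and 193 CPM in monocytes, 15.2-fold lower (difference -3.93 ± 0.38 SE on the log2 scale, adjusted p = 0.0021). Isg20, an RNA exonuclease, measured 566, 1048 and 966 CPM against 40.5, 58.7 and 61.0 CPM (difference -4.01 ± 0.37 SE on the log2 scale, adjusted p = 0.00198). Ddx60, a helicase that assists RNA sensing, measured 159.9, 166 and 188 CPM against 20.3, 23.6 and 21.0 CPM (difference -2.98 ± 0.26 SE on the log2 scale, adjusted p = 0.00198). The spread within each cell type was small beside the gap for these genes. The genes on the other side were Mx1 and Bst2. Mx1, an antiviral dynamin-like GTPase that is defective in many laboratory strains, measured 5.58, 2.92 and 8.81 CPM in neutrophils and 52.1, 29.1 and 100.3 CPM in monocytes (difference 3.39 ± 0.62 SE on the log2 scale, adjusted p = 0.00936). Bst2, which tethers budding virus, measured 33.5, 34.9 and 96.4 CPM against 233, 115 and 242 CPM (difference 1.84 ± 0.52 SE on the log2 scale, adjusted p = 0.0383). The call of Bst2 was lost without neutrophil tag_367, neutrophil tag_706, monocyte tag_367 or monocyte tag_1341 (adjusted p from 0.108 to 0.142). The signalling members Stat2 and Irf7 did not pass, with adjusted p of 0.279 and 0.171, and neither did Ifitm3 (adjusted p = 0.749). With total counts alone 17 were lower and 3 higher.

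Promoters of 3 of these genes are shown because the interferon-stimulated response element, the site through which type I interferon acts on promoters, is written in their letters. Searched as TTTC, 2 bases of any kind and TTTC on both strands in the 250 bases before the start, it stood in 12 of the 24 listed genes that matched RefSeq, against 2.96% of the 11303 promoters of tested genes. Of these 12 genes, 9 were lower in monocytes, 1 (Bst2) was higher and 2 (Oas1a and Stat2) were not called. The stretches, on GRCm38.p6, are chr4:156200819-156200938 (minus strand) for Isg15, chr19:34640769-34640888 (plus strand) for Ifit1 and chr12:26456453-26456572 (minus strand) for Rsad2, with the element in capitals.
Isg15: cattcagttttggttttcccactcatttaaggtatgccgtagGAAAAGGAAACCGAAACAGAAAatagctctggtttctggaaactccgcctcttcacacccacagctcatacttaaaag
Ifit1: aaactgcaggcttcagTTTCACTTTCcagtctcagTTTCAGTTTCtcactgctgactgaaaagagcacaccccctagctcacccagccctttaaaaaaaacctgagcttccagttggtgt
Rsad2: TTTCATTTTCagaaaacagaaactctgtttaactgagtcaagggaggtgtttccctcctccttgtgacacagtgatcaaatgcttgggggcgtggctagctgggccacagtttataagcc
Isg15 holds 3 overlapping matches and Ifit1 holds 2 separate ones, while Rsad2 holds 1. Ifit1, which binds foreign RNA ends, measured 722, 1130.2 and 2322 CPM in neutrophils and 23.3, 101 and 21.4 CPM in monocytes (difference -4.84 ± 0.82 SE on the log2 scale, adjusted p = 0.00726). Rsad2, the antiviral enzyme viperin, measured 1102, 1979.7 and 2848 CPM against 124, 108 and 177 CPM (difference -3.86 ± 0.45 SE on the log2 scale, adjusted p = 0.00281). Ifit1 and Rsad2 were chosen after their values were seen.

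Inflammatory cytokines and the NF-kB pathway leaned the same way with a few opposed members. Of 30 genes, 16 were lower (7 without monocyte tag_367, 10 without neutrophil tag_706, neutrophil tag_1341 or monocyte tag_1341) and 3 higher in monocytes (median -1.52), and with total counts alone the count was 8 lower and 7 higher. Il1b, the precursor of interleukin 1 beta, measured 24887, 26830.0 and 34588 CPM in neutrophils and 3844, 1205 and 3918 CPM in monocytes (difference -3.27 ± 0.60 SE on the log2 scale, adjusted p = 0.00932). Il1rn, which encodes the antagonist of its receptor, measured 1589.8, 3593 and 2575 CPM against 264, 208 and 402 CPM (difference -3.15 ± 0.44 SE on the log2 scale, adjusted p = 0.00413). The cytokine and its antagonist were thus on the same side, together with the receptor chains Il1rap, at 945, 1136 and 1457 CPM against 22.3, 38.2 and 35.7 CPM (difference -5.20 ± 0.38 SE on the log2 scale, adjusted p = 0.00198), and Il1r2. Nfkbiz, a nuclear inhibitor-like co-activator, measured 4595, 6040.1 and 8006 CPM against 475, 486 and 444 CPM (difference -3.73 ± 0.38 SE on the log2 scale, adjusted p = 0.0022). Rela, the main activating subunit, differed less, at 223, 257 and 223 CPM against 96.9, 80.4 and 85.5 CPM (difference -1.42 ± 0.24 SE on the log2 scale, adjusted p = 0.00732). The call of Rela was lost with total counts alone (adjusted p = 0.187). The 3 genes higher in monocytes, a share no larger than the 11.8% of all genes, were Il6, Il12b and Tnfsf9. Il6 measured 2.86, 4.58 and 5.82 CPM in neutrophils and 35.0, 102 and 69.7 CPM in monocytes, 15.6-fold higher (difference 3.96 ± 0.53 SE on the log2 scale, adjusted p = 0.00369), and was highest in tag_706. Il12b, the p40 chain of interleukin 12, had 0 counts in every neutrophil library and 2.57, 8.43 and 16.99 CPM in monocytes, at least 64.0-fold higher when the neutrophils are set to 3 counts over the group. Tnfsf9, the ligand of the co-stimulator 4-1BB, measured 7.35, 4.58 and 7.46 CPM against 91.7, 41.8 and 38.4 CPM (difference 3.15 ± 0.49 SE on the log2 scale, adjusted p = 0.00539).

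Il6 and Il1rn lie on opposite sides of this comparison although both carry NF-kB letters just upstream, so their promoters are shown beside that of Nfkbia, a feedback inhibitor of the pathway. The letters GGG, 2 bases of any kind and TTTCC, searched on both strands, stood within 250 bases before the start in 7 of 23 matched genes of the list, 6 lower (Il1rn, Csf1, Tnfaip3, Rel, Nfkbia and Nfkb2) and 1 higher (Il6), against 1.47% of promoters of tested genes. The stretches on GRCm38.p6 are chr5:30012994-30013113 (plus strand) for Il6, chr2:24345251-24345370 (plus strand) for Il1rn and chr12:55492648-55492767 (minus strand) for Nfkbia, with the match in capitals.
Il6: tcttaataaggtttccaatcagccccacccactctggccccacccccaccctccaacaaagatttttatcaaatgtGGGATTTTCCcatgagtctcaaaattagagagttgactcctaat
Il1rn: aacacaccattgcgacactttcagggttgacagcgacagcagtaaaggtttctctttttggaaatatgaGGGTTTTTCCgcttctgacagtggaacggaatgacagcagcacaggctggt
Nfkbia: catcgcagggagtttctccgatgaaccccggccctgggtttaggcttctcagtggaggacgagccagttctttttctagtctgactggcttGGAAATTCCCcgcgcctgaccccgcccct
Nfkbia, chosen after its value was seen, measured 4758, 4982 and 9237 CPM in neutrophils and 1949, 1374 and 1693 CPM in monocytes (difference -1.92 ± 0.41 SE on the log2 scale, adjusted p = 0.0151).

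Of 24 immediate early genes and MAP kinase phosphatases, 10 were lower in monocytes (6 without monocyte tag_367 or monocyte tag_1341), 2 higher and 12 not called, with a median of -1.13; with total counts alone, 3 were higher and 7 lower. Dusp1, which switches off p38 and JNK, measured 9113, 10881 and 15402 CPM in neutrophils and 1422, 1591 and 1810.2 CPM in monocytes (difference -2.88 ± 0.40 SE on the log2 scale, adjusted p = 0.00406). Dusp16, a JNK phosphatase, measured 1212, 1533 and 1278 CPM against 111, 110.4 and 166 CPM (difference -3.38 ± 0.31 SE on the log2 scale, adjusted p = 0.00198). Btg2, an antiproliferative factor, measured 6019.6, 5192 and 7985 CPM against 498, 757 and 532 CPM (difference -3.43 ± 0.39 SE on the log2 scale, adjusted p = 0.00265). The phosphatases Dusp3 and Dusp22 were the 2 higher members, Dusp3 at 19.9, 19.9 and 14.2 CPM in neutrophils against 119, 97.9 and 128 CPM in monocytes (difference 2.67 ± 0.30 SE on the log2 scale, adjusted p = 0.00264). The call of Dusp22 was lost without neutrophil tag_367, neutrophil tag_706, monocyte tag_367 or monocyte tag_1341 (adjusted p from 0.0615 to 0.123). Fos, Jun and Egr1, which respond quickly to many stimuli, did not pass (adjusted p = 0.0632, 0.287 and 0.425). In the synthesis of lipid mediators and histamine, 4 of 13 genes were lower and 0 higher; with total counts alone, 2 were higher and 3 lower. Alox5, which starts leukotriene synthesis, measured 277, 297 and 373 CPM in neutrophils and 5.45, 18.8 and 4.45 CPM in monocytes (difference -5.04 ± 0.64 SE on the log2 scale, adjusted p = 0.00324). Ptgs2, the inducible cyclooxygenase, measured 1801, 1514 and 2083 CPM against 259, 139.9 and 379 CPM (difference -2.80 ± 0.42 SE on the log2 scale, adjusted p = 0.00503).

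Chemokine ligands were called in both directions, in numbers that depended on the library left out and on the scaling. Of 16 ligand genes, 5 were higher (1 without neutrophil tag_367, 2 without neutrophil tag_706 or monocyte tag_367, 3 without neutrophil tag_1341 or monocyte tag_706) and 3 lower (1 without neutrophil tag_706, neutrophil tag_1341 or monocyte tag_367) in monocytes; with total counts alone, 6 were higher and 1 lower. Cxcl2, a ligand of CXCR2, was lower at 756, 474 and 919 CPM in monocytes against 4380.1, 6348 and 6155 CPM in neutrophils (difference -2.97 ± 0.40 SE on the log2 scale, adjusted p = 0.00373), so neutrophils held more of both the receptor and this ligand. Its relative Cxcl3 measured 63.3, 234 and 186 CPM in neutrophils and 47.4, 59.6 and 38.7 CPM in monocytes, and its call was lost without neutrophil tag_706, neutrophil tag_1341, monocyte tag_367 or monocyte tag_1341 (adjusted p from 0.114 to 0.151) and with total counts alone (adjusted p = 0.321). Ccl2, the ligand of CCR2, was higher in monocytes at 65.5, 82.4 and 144 CPM against 8.72, 6.25 and 23.9 CPM (difference 2.91 ± 0.60 SE on the log2 scale, adjusted p = 0.0136). The call of Ccl2 was lost without neutrophil tag_367 or neutrophil tag_706 (adjusted p from 0.0558 to 0.0669). Cxcl16, a membrane-bound chemokine and scavenger receptor, measured 22.6, 25.8 and 14.6 CPM in neutrophils and 243, 179 and 145 CPM in monocytes (difference 3.17 ± 0.36 SE on the log2 scale, adjusted p = 0.00265). Ccl22, which draws regulatory T cells, had 0, 0.694 and 0.299 CPM in neutrophils and 17.3, 64.9 and 1.90 CPM in monocytes with a wide spread between monocyte libraries, and its call was lost without neutrophil tag_367, neutrophil tag_706, neutrophil tag_1341, monocyte tag_367 or monocyte tag_706 (adjusted p from 0.0686 to 0.0843). Of 18 attractant receptors, 9 were lower and 4 higher (1 without neutrophil tag_706 or monocyte tag_367, 2 without monocyte tag_1341), with a median of -1.53. Ccr1, a receptor of CCL3 and CCL5, measured 2868, 4517 and 4050.3 CPM in neutrophils and 312, 273 and 678 CPM in monocytes (difference -3.18 ± 0.47 SE on the log2 scale, adjusted p = 0.00485). Ccrl2, which presents the attractant chemerin, measured 6096, 7545 and 9622 CPM against 636, 548 and 729 CPM (difference -3.60 ± 0.38 SE on the log2 scale, adjusted p = 0.00242). Higher with Ccr2, Cx3cr1 and Ccr7 was C3ar1, the receptor for complement fragment C3a, at 3.68, 14.9 and 16.7 CPM against 64.4, 39.4 and 89.8 CPM (difference 2.46 ± 0.61 SE on the log2 scale, adjusted p = 0.0261). The call of C3ar1 was lost without neutrophil tag_706, monocyte tag_367 or monocyte tag_1341 (adjusted p from 0.0807 to 0.0849).

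Cytokine receptors, pathogen sensors and adhesion genes were lower in monocytes more often than higher. Of 24 receptors for colony-stimulating factors and cytokines, 11 were lower (6 without monocyte tag_367) and 0 higher; with total counts alone, 4 were higher and 7 lower. Of 30 pattern recognition genes, 14 were lower (8 without monocyte tag_367) and 5 higher (2 without neutrophil tag_367, neutrophil tag_706, monocyte tag_367 or monocyte tag_1341), with a median of -1.15. Clec4d, a lectin receptor for mycobacterial glycolipid, measured 4115, 6703 and 5803 CPM in neutrophils and 230.4, 263 and 456 CPM in monocytes (difference -4.13 ± 0.44 SE on the log2 scale, adjusted p = 0.00246). Tlr6, which pairs with TLR2 to sense lipopeptides, measured 199, 251 and 213 CPM against 21.8, 10.8 and 13.1 CPM (difference -3.86 ± 0.37 SE on the log2 scale, adjusted p = 0.0021). The adaptor Myd88 measured 703, 745 and 861 CPM against 199, 161 and 189 CPM (difference -2.07 ± 0.25 SE on the log2 scale, adjusted p = 0.00312). The higher members included Tmem173, which encodes the DNA-sensing adaptor STING, at 6.13, 8.89 and 11.8 CPM in neutrophils and 112, 38.1 and 60.9 CPM in monocytes (difference 2.97 ± 0.50 SE on the log2 scale, adjusted p = 0.00741), and the inflammasome adaptor Pycard at 8.72, 16.2 and 11.9 CPM against 154, 57.7 and 123 CPM (difference 3.18 ± 0.47 SE on the log2 scale, adjusted p = 0.00475). Of 25 adhesion genes, 10 were lower (5 without monocyte tag_367, 6 without neutrophil tag_706) and 1 higher. Selplg, the ligand by which leukocytes roll on P-selectin, measured 2765, 3362 and 4015 CPM in neutrophils and 490.4, 334 and 453 CPM in monocytes (difference -2.99 ± 0.34 SE on the log2 scale, adjusted p = 0.00265). Siglece, an inhibitory lectin, measured 319, 362 and 482.4 CPM against 22.1, 19.8 and 42.1 CPM (difference -3.79 ± 0.40 SE on the log2 scale, adjusted p = 0.00243). The exception was the integrin beta 1 gene Itgb1, at 47.8, 46.8 and 52.8 CPM against 102, 107 and 136 CPM (difference 1.22 ± 0.26 SE on the log2 scale, adjusted p = 0.0157). The call of Itgb1 was lost without neutrophil tag_367, neutrophil tag_706 or monocyte tag_1341 (adjusted p from 0.0561 to 0.0632). With total counts alone, adhesion had 7 lower and 6 higher members and pattern recognition 9 and 9.

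Complement, matrix and lipid genes were among the groups that leaned toward monocytes. Of 19 complement and Fc receptor genes, 9 were higher (3 without monocyte tag_367, 4 without neutrophil tag_367, neutrophil tag_706 or monocyte tag_1341) and 5 lower (3 without monocyte tag_367); with total counts alone, 11 were higher and 2 lower. C1qa, which encodes part of the recognition unit of the classical pathway, had 2 counts over the neutrophil libraries and 19.1, 33.9 and 20.8 CPM in monocytes, and C1qb measured 2.32, 1.39 and 1.49 CPM against 17.9, 31.0 and 24.7 CPM (difference 3.81 ± 0.55 SE on the log2 scale, adjusted p = 0.00446). C1q genes are also defining markers of interstitial macrophages, a list of which 5 of 8 tested members were higher (2 without neutrophil tag_367, 3 without neutrophil tag_706, neutrophil tag_1341 or monocyte tag_1341) and whose sum was 316, 1325 and 489 CPM in monocytes, highest in tag_706, and 179, 172 and 90.5 CPM in neutrophils; the part of such macrophages was not tested. On the other side stood C5ar1, the receptor of the attractant C5a, at 2944, 6165 and 4967 CPM in neutrophils against 333, 424 and 892 CPM in monocytes (difference -3.09 ± 0.52 SE on the log2 scale, adjusted p = 0.00718). Of 23 matrix and coagulation genes, 7 were higher and 2 lower. Sdc3, a heparan sulfate proteoglycan, measured 14.2, 9.03 and 19.6 CPM against 249, 106 and 168 CPM (difference 3.61 ± 0.46 SE on the log2 scale, adjusted p = 0.00324). The metalloproteinase Mmp19 measured 8.17, 4.03 and 11.6 CPM against 109, 77.5 and 155 CPM (difference 3.84 ± 0.50 SE on the log2 scale, adjusted p = 0.00349). The lower members were Fgl2, a membrane prothrombinase, at 1345, 2355 and 2920.4 CPM against 209, 159 and 336 CPM (difference -3.23 ± 0.45 SE on the log2 scale, adjusted p = 0.00406), and F5, which encodes clotting factor V, at 105, 129 and 143 CPM against 40.5, 28.7 and 42.5 CPM (difference -1.76 ± 0.29 SE on the log2 scale, adjusted p = 0.00713).

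Of 24 genes of lipid handling, 6 were higher (2 without neutrophil tag_706, 3 without neutrophil tag_367) and 3 lower in monocytes, the latter near the 12.4% of all genes. With total counts alone, 12 were higher and 3 lower. Scarb1, the HDL receptor, measured 20.2, 24.9 and 12.5 CPM in neutrophils and 232, 124 and 206 CPM in monocytes (difference 3.29 ± 0.40 SE on the log2 scale, adjusted p = 0.00302). Lrp1, a broad scavenger and endocytic receptor, measured 67.4, 47.2 and 81.6 CPM against 492, 241 and 301 CPM (difference 2.40 ± 0.37 SE on the log2 scale, adjusted p = 0.00563). Apoe, the apolipoprotein E gene, measured 74.8, 95.4 and 80.5 CPM against 220.2, 812 and 354 CPM (difference 2.47 ± 0.49 SE on the log2 scale, adjusted p = 0.0126), was highest in monocyte library tag_706, and its call was lost without neutrophil tag_367, neutrophil tag_706 or neutrophil tag_1341 (adjusted p from 0.055 to 0.073). Slc27a4, a fatty acid transporter, was lower in monocytes at 10.4, 13.2 and 12.8 CPM against 279.8, 299 and 213 CPM (difference -4.44 ± 0.30 SE on the log2 scale, adjusted p = 0.00198), with Acsl1, which activates fatty acids, at 31.8, 29.4 and 33.9 CPM against 139, 126 and 102 CPM (difference -1.95 ± 0.27 SE on the log2 scale, adjusted p = 0.00406). Scarb1 and Lrp1 thus lay opposite to Slc27a4 and Acsl1, as single genes and not as a result about the list.

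All 13 mitochondrially encoded genes were higher in monocytes (median 2.42), and their protein genes took 4.82% to 5.35% of TPM in monocytes and 0.303% to 0.813% in neutrophils. mt-Nd5, a subunit of complex I, measured 163, 81.5 and 76.6 CPM in neutrophils and 1012, 515 and 826 CPM in monocytes (difference 2.87 ± 0.43 SE on the log2 scale, adjusted p = 0.00498). Of 33 nuclear genes of oxidative phosphorylation, 21 were higher (8 without monocyte tag_367, 9 without neutrophil tag_706 or monocyte tag_1341, 11 without neutrophil tag_367) and 0 lower, with a median of 1.56. Atp5o, a subunit of ATP synthase, measured 15.3, 13.6 and 20.1 CPM against 130.3, 73.1 and 118 CPM (difference 2.71 ± 0.35 SE on the log2 scale, adjusted p = 0.00346). Uqcrc1, a core subunit of complex III, measured 71.6, 65.4 and 97.0 CPM against 359.6, 198 and 354 CPM (difference 1.96 ± 0.34 SE on the log2 scale, adjusted p = 0.00758). A further difference in a mitochondrial gene was Txnrd2, the mitochondrial thioredoxin reductase, with 0 counts in all 3 neutrophil libraries and 15.4, 8.99 and 20.2 CPM in monocytes, at least 100.3-fold higher against 3 counts over the neutrophil group. Glycolysis went the other way, with 8 of 21 genes lower in monocytes (5 without monocyte tag_367) and 0 higher, and a median of -0.80; with total counts alone 5 were lower and 7 higher. Slc16a3, the lactate exporter, measured 5617, 10069 and 9559 CPM in neutrophils and 539.7, 434 and 747 CPM in monocytes (difference -3.88 ± 0.44 SE on the log2 scale, adjusted p = 0.00274). Pygl, which releases glucose from glycogen, measured 1135, 1321 and 1453 CPM against 134, 71.3 and 152 CPM (difference -3.45 ± 0.38 SE on the log2 scale, adjusted p = 0.00255).

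Of 77 cytosolic ribosomal protein genes tested, 62 were higher in monocytes (40 without monocyte tag_367) and 0 lower, with a median of 1.84 and 70 without overlap. They summed to 21487, 12249 and 12760.3 CPM in monocytes and 5347, 5510.2 and 5388 CPM in neutrophils. Rpl13 measured 100.1, 87.5 and 109 CPM in neutrophils and 795, 461 and 447 CPM in monocytes (difference 2.52 ± 0.33 SE on the log2 scale, adjusted p = 0.00334). Rpl4 measured 86.9, 67.9 and 135 CPM against 1022, 601 and 547 CPM (difference 2.91 ± 0.40 SE on the log2 scale, adjusted p = 0.00403). Ribosomal protein genes have many near-identical pseudogenes, so single members are less certain than the group. Of 27 translation factors, 16 were higher (9 without monocyte tag_367) and 1 lower. Rack1, a scaffold on the small ribosomal subunit, measured 36.9, 31.0 and 50.3 CPM against 446, 208 and 226 CPM (difference 2.90 ± 0.40 SE on the log2 scale, adjusted p = 0.00406). Npm1, a ribosome assembly factor of the nucleolus, measured 17.4, 18.1 and 21.8 CPM against 144, 90.4 and 80.3 CPM (difference 2.46 ± 0.34 SE on the log2 scale, adjusted p = 0.00403). Eif1, which guards the choice of start codon, was the exception at 2409.5, 3779 and 2878 CPM in neutrophils against 704, 662 and 583 CPM in monocytes (difference -2.22 ± 0.32 SE on the log2 scale, adjusted p = 0.00434). Ddost, a subunit of the oligosaccharyltransferase that glycosylates proteins in the endoplasmic reticulum, was among the smallest p-values at 24.0, 19.2 and 22.7 CPM against 294, 139.9 and 291 CPM (difference 3.46 ± 0.38 SE on the log2 scale, adjusted p = 0.00255).

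**Figure D4:**
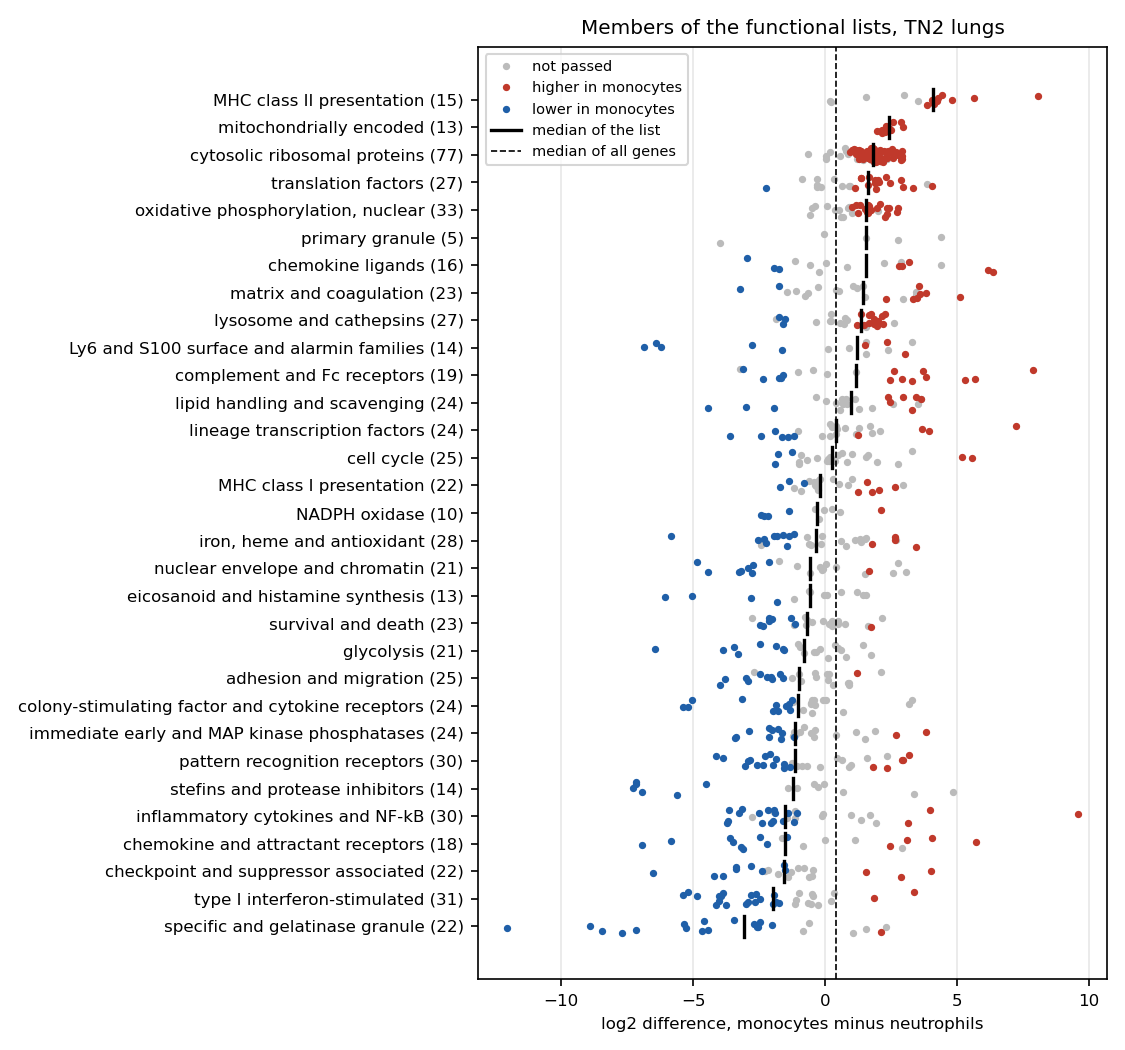
Log2 difference, monocytes minus neutrophils, of each tested member of the function lists, with called members in colour and the list median as a bar. Mitochondrially encoded and class II genes lie to the right with medians of 2.42 and 4.08, type I interferon-stimulated and specific granule genes to the left with medians of -1.97 and -3.07, and the dashed line marks the median of all genes at 0.42.

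Of 21 genes of the nuclear envelope and chromatin, 8 were lower in monocytes and 1 higher. The split depended on the scaling: with total counts alone, 7 were higher and 8 lower. Lmnb1, which encodes lamin B1 of the nuclear lamina, measured 1921, 2693 and 2144 CPM in neutrophils and 73.9, 71.4 and 91.6 CPM in monocytes, 28.5-fold lower (difference -4.83 ± 0.33 SE on the log2 scale, adjusted p = 0.00198), while Lmna, which encodes the A-type lamins, was the higher member at 58.0, 102 and 121 CPM against 292, 279 and 318 CPM (difference 1.66 ± 0.33 SE on the log2 scale, adjusted p = 0.0119). The call of Lmna was lost without neutrophil tag_706 or monocyte tag_367 (adjusted p from 0.0503 to 0.0578). Hmgb2, a DNA-bending chromatin protein, measured 603, 719 and 583 CPM against 102, 78.3 and 71.2 CPM (difference -2.92 ± 0.28 SE on the log2 scale, adjusted p = 0.0021). Hmgn2, which binds nucleosomes, measured 314, 384 and 327 CPM against 48.2, 56.9 and 47.6 CPM (difference -2.75 ± 0.25 SE on the log2 scale, adjusted p = 0.00198). Of 25 cell cycle genes, 2 were higher (0 without neutrophil tag_367 or monocyte tag_367, 1 without neutrophil tag_1341 or monocyte tag_1341) and 3 lower, shares no larger than the 11.8% and 12.4% of all genes; with total counts alone, 7 were higher and 1 lower. Mki67 and Top2a, markers of dividing cells, did not pass (adjusted p = 0.291 and 0.559). The replication helicase gene Mcm5 measured 0.136, 0.278 and 0.149 CPM in neutrophils and 10.7, 8.74 and 2.31 CPM in monocytes, and its call was lost without neutrophil tag_367 or monocyte tag_367 (adjusted p from 0.0537 to 0.0636). Cdkn1a, which encodes the cell cycle inhibitor p21, measured 2385, 2398 and 3064 CPM against 924, 500.3 and 863 CPM (difference -1.78 ± 0.35 SE on the log2 scale, adjusted p = 0.0117).

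Among 23 genes of survival and death, 7 were lower in monocytes (4 without neutrophil tag_706, monocyte tag_367 or monocyte tag_1341) and 1 higher, a balance that turned with the scaling: with total counts alone, 7 were higher and 3 lower. Birc3, an inhibitor of apoptosis, measured 759, 1019 and 1232 CPM in neutrophils and 234, 199 and 253 CPM in monocytes (difference -2.13 ± 0.30 SE on the log2 scale, adjusted p = 0.00406). Bcl2a1b, an antiapoptotic BCL2 relative with near copies, measured 478, 619 and 821 CPM against 81.2, 111 and 159 CPM (difference -2.45 ± 0.36 SE on the log2 scale, adjusted p = 0.00485). The pro-apoptotic gene Bid was lower as well, at 104, 66.4 and 92.5 CPM against 25.3, 9.79 and 24.6 CPM (difference -2.14 ± 0.44 SE on the log2 scale, adjusted p = 0.0135). The call of Bid was lost with total counts alone (adjusted p = 0.0513). Bax, also pro-apoptotic, was the gene higher in monocytes, at 19.6, 18.9 and 23.4 CPM against 80.2, 38.9 and 89.7 CPM. The call of Bax was lost without neutrophil tag_367, neutrophil tag_706, monocyte tag_367 or monocyte tag_1341 (adjusted p from 0.0595 to 0.0746). In iron handling and defence against oxidants, 10 of 28 genes were lower (4 without monocyte tag_367, 5 without neutrophil tag_706, 6 without neutrophil tag_1341 or monocyte tag_1341) and 4 higher (2 without monocyte tag_367), the latter near the 11.8% of all genes. Here too the balance turned: with total counts alone, 11 were higher and 5 lower. The peroxiredoxins Prdx1 and Prdx2 were higher, Prdx1 at 58.8, 59.0 and 87.6 CPM in neutrophils against 446, 402 and 428 CPM in monocytes (difference 2.63 ± 0.28 SE on the log2 scale, adjusted p = 0.00243) and Prdx2 at 14.2, 13.3 and 19.6 CPM against 130.0, 83.9 and 80.2 CPM (difference 2.64 ± 0.35 SE on the log2 scale, adjusted p = 0.00356). Txn1, the cytosolic thioredoxin, was lower at 199, 178 and 197 CPM against 643, 881 and 655 CPM in neutrophils (difference -1.92 ± 0.26 SE on the log2 scale, adjusted p = 0.00389). Fth1, the ferritin heavy chain, was nearly equal across monocytes at 4474, 4527 and 4492 CPM and varied in neutrophils at 16603, 26897 and 20022 CPM (difference -2.23 ± 0.42 SE on the log2 scale, adjusted p = 0.00999). The call of Fth1 was lost without monocyte tag_367 (adjusted p = 0.0623).

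Genes linked to checkpoints and to suppression of immune responses were lower in monocytes more often than higher. Of 22 genes, 9 were lower and 3 higher (median -1.54), the latter near the 11.8% of all genes. Cd274, which encodes PD-L1, measured 475, 546 and 658 CPM in neutrophils and 86.8, 119.98 and 114 CPM in monocytes (difference -2.39 ± 0.28 SE on the log2 scale, adjusted p = 0.00281). Cd84, a homophilic receptor of the SLAM family, measured 765, 695 and 748 CPM against 74.4, 78.1 and 63.3 CPM (difference -3.35 ± 0.26 SE on the log2 scale, adjusted p = 0.00198). Trem3, an activating receptor, measured 546, 822 and 868 CPM against 33.7, 33.1 and 55.7 CPM (difference -4.19 ± 0.37 SE on the log2 scale, adjusted p = 0.00198). The 3 higher genes were Trem2, Cd40 and Cd86. Trem2, a lipid-sensing receptor of macrophages, measured 0.817, 3.47 and 4.18 CPM in neutrophils and 73.6, 28.6 and 34.9 CPM in monocytes (difference 4.01 ± 0.72 SE on the log2 scale, adjusted p = 0.00856). The co-stimulator Cd40 measured 9.26, 8.33 and 5.67 CPM against 83.8, 49.0 and 39.8 CPM (difference 2.89 ± 0.43 SE on the log2 scale, adjusted p = 0.00492). Cd86, the ligand of CD28 and CTLA-4, measured 67.4, 64.6 and 30.9 CPM against 143, 111 and 223 CPM (difference 1.55 ± 0.41 SE on the log2 scale, adjusted p = 0.0317). The call of Cd86 was lost without neutrophil tag_367, neutrophil tag_706, neutrophil tag_1341, monocyte tag_367 or monocyte tag_1341 (adjusted p from 0.0572 to 0.104). Arg1, the arginase often used to mark suppressive myeloid cells, had too few counts to be tested.

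Genes of smallest p in each direction were named by a rule that kept only genes without overlap. On the neutrophil side, beside Csf3r, Il1rap, Lmnb1, Slc27a4 and Cd84, they were Trim30b, Tbc1d10c, Ripor2, Grina, Themis2, P2ry13 and Sesn2, all with an adjusted p of 0.00198. Themis2, a signalling scaffold of B cells and myeloid cells, measured 2884, 3472 and 3306 CPM in neutrophils and 170.3, 160.1 and 211 CPM in monocytes (difference -4.16 ± 0.32 SE on the log2 scale, adjusted p = 0.00198). P2ry13, a receptor for ADP, measured 155, 147 and 252 CPM against 8.72, 8.92 and 7.34 CPM (difference -4.47 ± 0.35 SE on the log2 scale, adjusted p = 0.00198). Sesn2, a stress-induced regulator of mTORC1, measured 528, 584 and 689.7 CPM against 45.5, 47.0 and 59.5 CPM (difference -3.57 ± 0.28 SE on the log2 scale, adjusted p = 0.00198). On the monocyte side, with Irf8, Id3, Prdx1 and Ddost, they were Akr1b3, Emp1, Dapk1, Glrx3, Tnip3, Plxnd1 and Dpysl2. Akr1b3, an aldose reductase, measured 12.9, 9.86 and 9.40 CPM in neutrophils and 109, 78.6 and 109.6 CPM in monocytes (difference 3.20 ± 0.32 SE on the log2 scale, adjusted p = 0.0022). Plxnd1, a semaphorin receptor, measured 2.996, 3.06 and 2.24 CPM against 79.0, 32.7 and 60.8 CPM (difference 4.37 ± 0.47 SE on the log2 scale, adjusted p = 0.00252). Dapk1, a death-associated kinase, measured 5.31, 4.31 and 5.07 CPM against 48.9, 50.8 and 45.4 CPM (difference 3.30 ± 0.35 SE on the log2 scale, adjusted p = 0.00242).

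Among the 6 largest differences in each direction, Camp and Ngp are described above with the granule genes. The other 10 genes had 0 counts in all libraries of 1 cell type, which held for 63 called genes in neutrophils and 7 in monocytes. Higher in monocytes, beside Txnrd2 and Il12b, were Mboat1, a lysophospholipid acyltransferase, Zmynd15, Rhbdd3 and Slc9a4, a sodium-proton exchanger. Without monocyte tag_367 the calls of Mboat1 and Slc9a4 were lost (adjusted p = 0.0567 and 0.0632). Zmynd15 stood at 6.30, 10.9 and 13.3 CPM in monocytes, at least 71.3-fold higher than 3 counts over the neutrophil group. Higher in neutrophils were Mgam, Lin28a, Chil5 and Col6a4, each with 0 counts in monocytes. Mgam, a maltase-glucoamylase, measured 33.5, 13.5 and 2.69 CPM in neutrophils, at least 235.1-fold above 3 counts over the monocyte group. Lin28a, an RNA-binding protein known from stem cells, measured 10.6, 4.58 and 18.8 CPM, at least 154.3-fold above the same floor, and Chil5, a chitinase-like protein, 9.13, 5.28 and 13.9 CPM, at least 128.9-fold. These bounds cover counting error only.

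On a per-length scale, which allows genes to be ranked within a library, the 2 alarmin transcripts dominated neutrophils. The mean level of S100a8 was 77023 ± 16528 TPM (SD, n = 3) and that of S100a9 67454 ± 6017 TPM, followed by Fth1 at 25684 ± 5157 TPM, Il1b at 21874 ± 2349 TPM and Cd14, the lipopolysaccharide co-receptor, at 21599 ± 4766 TPM. In monocytes the first place was held by Lyz2, the lysozyme of myeloid cells, at 28812 ± 14111 TPM, and B2m, the light chain of MHC class I, stood at 12343 ± 575 TPM, with Fth1 at 11203 ± 1982 TPM and mt-Atp6, a mitochondrial ATP synthase subunit, at 10985 ± 264 TPM. B2m had 13855 ± 926 TPM in neutrophils. Lyz2, though first in monocytes, was not called between the cell types (adjusted p = 0.148), and its monocyte libraries spread from 16239 to 44074 TPM. Class II genes reached the most abundant 20 of monocytes, Cd74 at 7040 ± 3012 TPM and H2-Ab1 at 6046 ± 3134 TPM. The genes of this paragraph that no list names were chosen after their levels were seen.

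The choice of scaling shifted the list medians together with the median of all genes. Relative to the median of all genes under each scaling, the class II list stood at 3.65 with TMM, and the type I interferon and specific granule lists stood below 0 under TMM, DESeq2's size factors, total counts and log2(TPM + 1). Relative medians that changed sign under 1 or more alternatives were those of lineage transcription factors, chemokine ligands and cell cycle among the function lists.

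**Figure D5:**
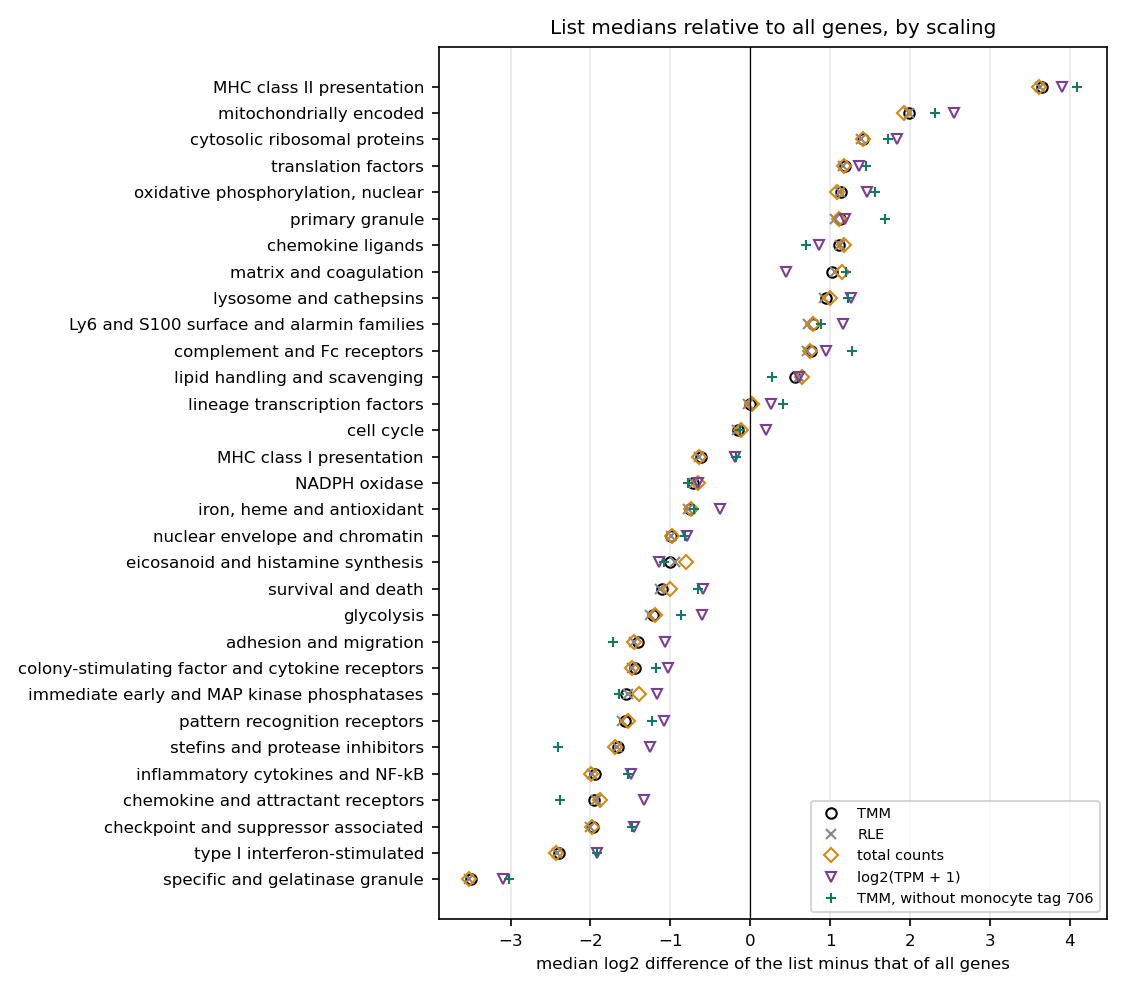
Median log2 difference of each function list minus the median of all genes, under 4 scalings of the same libraries and, with TMM, without monocyte library tag_706. Class II genes are highest at 3.65 and specific and gelatinase granule genes lowest at -3.50 under TMM.

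Whether the difference between the lineages was itself different under the highly metastatic tumour was tested as an interaction over all 10 libraries. Of 13398 genes, 0 (0.0%) were called, the smallest adjusted p was 0.349, and 472 had an unadjusted p under 0.05 (edgeR quasi-likelihood test). DESeq2 called 30, where the difference, monocytes minus neutrophils, was higher in TN2 than in TN1 at 7 genes and lower at 23. Leaving out the TN1 neutrophil library of tag_191 gave 377 calls, and leaving out the TN1 monocyte library of tag_191 gave 68, each leaving 1 library in that group, which is then assumed to vary like the others. Of the 2792 called genes without overlap in TN2, 2418 also had no overlap in the same direction in the 2 against 2 libraries of TN1, and 2 had none in the opposite direction. Over all genes tested in TN2, the TN1 groups did not overlap at 57.5%, 32.2% higher and 25.3% lower in monocytes. In Csf3r, for example, the difference, monocytes minus neutrophils, was 0.73 higher on the log2 scale in TN2 than in TN1, a numerically smaller gap (adjusted p = 1), and in Isg15 the same quantity was -0.15 (adjusted p = 1). Not all estimates were this small. Picked for its size, the quantity was -2.60 ± 0.59 SE in Cd74, -3.39 ± 0.74 SE in H2-Ab1 and 4.07 ± 1.19 SE in S100a8. Each of these gaps was numerically smaller in TN2, and none of these genes was called. A p above the threshold does not show that the lineages differ alike under both tumours.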

How the data were processed

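RNA-seq libraries of FACS-sorted lung monocytes and neutrophils were analysed from deposited tables with 1 row per transcript. The authors quantified reads against the GRCm38 transcriptome with kallisto 0.42.3, per the series' design text and the submitters' processing notes. The deposited values are estimated counts and TPM, which the authors computed per transcript and library. Here 81927 of 85276 transcripts (96.1%) were matched by ID to GENCODE M21 (GRCm38) and summed to 29972 genes. Unmatched transcripts held 2.06% to 3.56% of the TN2 counts and were left out. Summed estimated counts were rounded and tested in R 4.3.3 with edgeR 4.0.16: filterByExpr (10 counts, 15 in total), TMM scaling, and the quasi-likelihood test of cell type over the 6 TN2 libraries, with Benjamini-Hochberg adjustment and a threshold of 0.05. The biological coefficient of variation was 0.705 on 4 residual degrees of freedom. On simulated counts for the 11519 genes of this comparison, 16.5% of 97 genes changed by 2 on the log2 scale were called. So were 67% of 103 genes changed by 4 and 0.0442% of 11319 unchanged genes. The share of changed genes there was far below the 24.3% called here, and the adjustment depends on that share, so these rates need not hold for this comparison.

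The interaction with tumour was tested over all 10 libraries in 4 groups. Alternatives were other scalings, DESeq2 1.42.0, limma 3.58.1 (voom, and trend on log2(TPM + 1) and log2(TPM + 0.1)), other filters, a replicate block on the tag, a fit of all 4 groups, protein-coding genes only and each library left out. No set test was run, and lists are described by counts and medians. The members and all lists were chosen with earlier results of these data known. Genes are named by rule: 28 listed genes, in each direction the 12 of smallest p and the 6 of largest difference among called genes without overlap and with at least 10 counts in every library of the higher group, and the 3 called members of smallest p per list and direction; other names are given as such. A few genes that the rule names are not reported here. Replicates of a cell type differed well beyond counting error, so none was merged. Floors of 3 counts cover counting error only. Promoter sequences are from RefSeq (GRCm38.p6), 250 bases before the start, searched on both strands. The authors' own comparison tables, which set TN2 against TN1 within a cell type, were not used.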

Additional observations from a re-analysis of the deposited data

How the results depend on the processing

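The comparison called 2796 genes, 1365 higher and 1431 lower in monocytes. Total counts alone gave 4267 calls (3595 higher, 672 lower). A limma trend fit, which changes test and scaling together, called 5570 genes on log2(TPM + 1), 4695 higher and 875 lower, and 5204 on log2(TPM + 0.1), 4368 and 836. DESeq2 called 3979 genes (2050 higher), and the fit of 4 groups over 10 libraries 1751 (725 higher and 1026 lower). Leaving out single libraries gave 1112 to 2556 calls, 353 to 1276 higher and 759 to 1323 lower, with the fewest without monocyte library tag_367, then 1524 without monocyte library tag_1341, 1696 without neutrophil library tag_706 and 1786 without neutrophil library tag_367. Leaving out monocyte library tag_706 and neutrophil library tag_1341 together gave 3381 (1776 and 1605). No gene called under any of these settings had the opposite direction from its call here, and 29 to 31 called genes changed sign with total counts or TPM. The interaction, at 0 calls, rose to 30 with DESeq2, to 1 without a filter, and ran from 0 to 377 as single libraries were left out, 377 without the TN1 neutrophil library tag_191 and 68 without the TN1 monocyte library tag_191. In the leave-one-out fits that leave 1 library in a group, that library is assumed to vary like the others. The cause was not tested.

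Tags were compared as a possible pairing. The deviations of same-tag libraries from their cell type means correlated at -0.0896 for tag_367, 0.351 for tag_706 and 0.363 for tag_1341. Libraries of different tags correlated at -0.433 to 0.253, so tag_706 and tag_1341 gave the highest values of all combinations. These values do not settle whether tags are pairs. The main test had no block because the labels do not say that a tag is a mouse. With a replicate block the count was 2488 (1202 higher, 1286 lower), and the interaction 0.

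Named genes that changed sign had not passed the test, except H2-Q6. Cebpe, at 0.17, fell to -0.24 with limma-voom, -0.14 with the replicate block, -0.0161 without neutrophil library tag_367 and -0.80 without monocyte library tag_1341. Ifngr1, at 0.02, gave -0.0797 with DESeq2's size factors and with DESeq2, -0.00350 with limma-voom, -0.0375 with the filter of 50 counts, -0.00318 with the replicate block, -0.18 without neutrophil library tag_367, -0.11 without monocyte library tag_367, -0.0452 without monocyte library tag_1341 and -0.0109 over protein-coding genes. Without monocyte library tag_706 and neutrophil library tag_1341 together, Cebpe stood at 0.81, Ifngr1 at 0.30 and Thbs1 at 1.37. Tnfsf10, at -0.75, gave 0.49 with total counts and 0.21 and 0.25 on the TPM scales. Thbs1, at 0.40, gave -0.0568 without neutrophil library tag_367 and -0.25 without monocyte library tag_1341. H2-Q6, at -0.79, gave 0.25 with total counts and 0.23 on both TPM scales.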
